A study of Mus musculus with 5 samples.

Results

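REST peaks at genes of the homeobox transcription factors were examined in the embryonic mouse pancreas. The genes were all protein-coding genes of the GENCODE vM1 annotation of mm9 whose symbol is Hoxa, Hoxb, Hoxc, Hoxd, Irx, Lhx, Pax, Pitx, Dlx, Otx or Isl followed by a number, begins with Nkx, or is that of a numbered gene of the Six6 family. This gave 95 of 22225 protein-coding genes. A peak was assigned to a gene when it lay in the gene body, or when its centre was within 50 kb of the gene's start, and for genes without such a peak the nearest peak was located. Of the 95 genes 8 held a peak in at least 1 library, at 11 sites, and 87 held none. The 8 were Lhx3, Lhx4, Lhx5, Nkx1-1, Pax5, Pax6, Pax8 and Six6. Their share was 8.42% (exact binomial 95% interval 3.71 to 15.9), beside 9.8% of all protein-coding genes. Clustered Hox genes were counted singly in this interval.

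REST is a zinc-finger protein that recruits repressor complexes to a DNA element known as RE1, and it is known for holding neuronal genes silent outside neurons. Most homeobox genes named here encode homeodomain proteins, DNA-binding factors that set position and cell identity. Hox genes pattern the body axis, LIM-homeodomain (Lhx) and Pax factors specify neurons, sense organs, kidney and glands, and several Nkx, Pax, Isl and Irx factors specify the hormone cells of the pancreas. Several of the same factors are used in both spinal cord and islets. Some Pax proteins carry a paired domain without a complete homeodomain, and Pax5 and Pax8 are among them.

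Chromatin of untreated wild-type pancreas from a mixed strain with C57BL/6 had been precipitated with 12C11, a mouse monoclonal antibody to REST, and sequenced (ChIP-seq). At E13.5, 2 libraries (A and B) were made from pools of 4 to 6 pancreases. According to the study, REST is expressed at this stage mainly in progenitors and in interspersed mesenchymal cells. At E18.5, when acinar, duct and hormone cells are present, 3 libraries (A, B and C) were made from pools of 3 to 4. They are labelled as biological replicates. Only lists of called peaks were analysed, with 1400 and 1333 peaks in the E13.5 libraries and 541, 417 and 226 in the E18.5 libraries. Read depth is unknown for these lists, so stage and depth cannot be told apart, and an absent peak means that none was called. Whole organs were used, and weaker binding in each cell cannot be told apart from binding in fewer cells. Peak lists hold no expression values, and the labelled tissue was therefore not checked against its marker genes. Each peak carries a deposited score of unstated unit. This score is followed below by its rank, the percentile within its own library, where 100 is the highest and tied scores share their mean rank.

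The sites fell into a group called at both stages and a group called at E13.5 alone. Sites called in all 5 libraries lay at Lhx3, Nkx1-1 and Pax5, and a site at Lhx5 was called in 4. Another 5 sites, at Lhx3, Lhx4, Pax5 and Pax8, were called in both E13.5 libraries and in no E18.5 library. The remaining 2 sites, at Pax6 and Six6, were called in 1 library each. For all 11 sites the closest start of any protein-coding gene was that of the homeobox gene itself. By annotation 5 sites were in introns, 4 were intergenic and 2 were in a UTR, and 5 lay upstream and 6 downstream of the start.

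**Figure D1:**
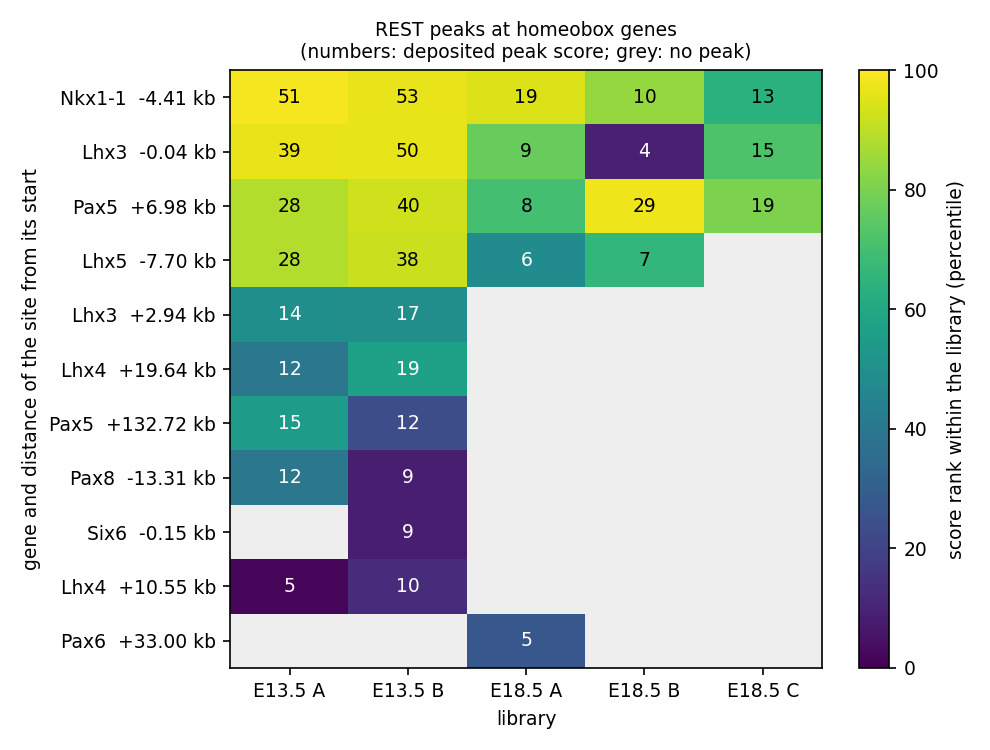
REST peaks at the 11 sites of the 8 homeobox genes (rows, with the distance from the gene start in kb) in the 5 libraries (columns). Numbers are deposited peak scores, colours are ranks within the library (percentile), and grey marks no called peak. The sites of Nkx1-1, Lhx3 (at the start), Pax5 (+6.98 kb) and Lhx5 fill the top rows with E13.5 ranks between 88.6 and 98.8, and they are the sites with both E13.5 and E18.5 peaks.

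RE1 was searched as TTCAGCACCNNGGACAGCGC, in which N is any base, on both strands of a 500-bp window at the centre of each site, with a match defined as at most 4 mismatches over the 18 scored letters. An RE1 with at most 3 mismatches, a stricter limit, was found at 3 of the 4 homeobox sites with the highest E13.5 ranks. Over the 9 homeobox sites of both E13.5 libraries it was also found at 3 (33.3%). Among all sites of both E13.5 libraries 690 of 1183 (58.3%) had such an RE1. The value at Nkx1-1, 3 mismatches, was the most common of all sites (287 sites). The RE1s of homeobox genes are shown with their flanking bases. Capitals mark the 20 letters of the element, and lower case marks 5 flanking bases on each side, read 5′ to 3′ along the strand of the match in mm9.
Lhx3, 38 bp upstream: cctccTTCAGCACCGCGGACAGCGCcagcc
Lhx5, 7.7 kb upstream: gcggcTTCAGCACCGCGGACAGCTCccgtc
Nkx1-1, 4.41 kb upstream: tggagGTCAGTACCGCGGACAGCTCcctga
Pax5, 133 kb downstream: ggacgGTCAGGACCAAGGACAGCAGcccct
Pax8, 13.3 kb upstream: aggctCACAGTACCTTGGACAGCACcaaat

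The elements lay at chr2:26063793-26063812, minus strand (Lhx3), chr5:120874195-120874214, plus strand (Lhx5), chr5:33780992-33781011, plus strand (Nkx1-1), chr4:44591656-44591675, minus strand (Pax5), and chr2:24344349-24344368, minus strand (Pax8). Among the 839 other matching sites of both E13.5 libraries, the most frequent letter at each position gave TTCAGCACCATGGACAGCGC. The Lhx3 element had 0 mismatches and was 1 of 15 such elements among the 1183 sites searched (1.27%). Counting positions from 1 at the 5′ end of the element, the Lhx5 element carried G19T as its single change. The Nkx1-1 element carried T1G, C6T and G19T. The Pax5 element carried T1G, C6G, G19A and C20G, and the Pax8 element carried T1C, T2A, C6T and G19A. A T at position 19 was present in 235 of the 839 other matches (28%), and the G of the consensus in 405 (48.3%).

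The Lhx3, Lhx5 and Nkx1-1 elements shared the bases GC in the unscored gap between the left and right arms. This pair was present in 51 of the 839 other matches (6.08%), where AT was the most common pair (197, 23.5%). The Lhx3 and Lhx5 elements were identical at 19 of 20 letters, Lhx5 and Nkx1-1 at 18, and Lhx3 and Nkx1-1 at 17. Between the other pairs of the 5 elements, 14 or 15 letters were identical. Each element was chosen as the best match to the same motif, so identity at most scored letters follows from the search. Identity between other matching sites was not counted. The gap pair was singled out with these sequences known, without a test.

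At 3 further sites the left and right arms of RE1 were present with at most 1 mismatch each but at a wider spacing than in the canonical element. This search, with gaps of 0 to 30 bp other than the canonical 2 bp, was added after the data were seen. Capitals mark the arms and lower case the gap.
Lhx3, intron: TTCAGCACCcaggcacGGACAGCGC
Pax5, intron, 6.98 kb downstream: TTCAGGACCcgctgcgtgtGGACAGCGC
Six6, 146 bp upstream: TTCAGCACCtccccagaatCGACAGCGC

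The gap was 7 bp at Lhx3 (chr2:26060815-26060839) and 10 bp at both Pax5 (chr4:44717340-44717367) and Six6 (chr12:74040744-74040771). At Lhx3 both arms were complete, at Pax5 the left arm had 1 mismatch, and at Six6 the right arm had 1. Of the 339 sites of both E13.5 libraries without a canonical match, 116 (34.2%) held such a split element, beside 2 of 1183 windows (0.169%) located 10 kb away. In 95 of the 116 (81.9%) the gap was 7 to 10 bp, with 22 sites at 7 bp and 13 at 10 bp.

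Lhx3, Lhx4 and Lhx5 were the LIM-homeodomain genes with peaks, 3 of the 8 Lhx genes. Lhx3 and Lhx4 are close paralogues that specify motor neurons and the anterior pituitary, and Lhx5 acts in the forebrain and spinal cord. Lhx3 (chr2:26055732-26063769, minus strand) had a site across its start (chr2:26063524-26064090), centred 38 bp upstream, with the complete RE1 34 bp upstream of the start. Its scores were 39 and 50 in E13.5 A and B (ranks 96.7 and 96.4). At E18.5 the scores were 9, 4 and 15 in A, B and C (ranks 76.7, 9.11 and 71.9). The site thus stood near the top of both E13.5 lists and near the bottom of E18.5 B. The second Lhx3 site (chr2:26060562-26061102) lay in an intron 2.94 kb downstream of the start, and 1263 bp from the nearest of the 4 annotated Lhx3 transcript starts. It scored 14 and 17 at E13.5 (ranks 49.7 and 49.3), in the middle of both lists, and had the split element.

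Lhx4 (chr1:157548827-157589157, minus strand) had both of its sites in introns. The site 19.6 kb downstream of the start (chr1:157569276-157569760) scored 12 and 19 (ranks 39.7 and 57.3). Its best RE1 had 5 mismatches, 1 over the limit. The site 10.6 kb downstream (chr1:157578447-157578767) scored 5 and 10 (ranks 1.43 and 12.8), among the lowest scores of E13.5 A, with 7 mismatches. Neither was called at E18.5.

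The Lhx5 site (chr5:120873931-120874469) was intergenic, 7.7 kb upstream of the gene (chr5:120881895-120891466, plus strand). Scores were 28 and 38 at E13.5 (ranks 88.6 and 91.9), and 6 and 7 in E18.5 A and B (ranks 48.2 and 66.3). No peak was called in E18.5 C, the shortest list. The RE1 was 4.5 bp from the centre of the site, as it was at the Lhx3 start.

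Pax5, Pax6 and Pax8 were the Pax genes with peaks, 3 of 9. Pax5 is the commitment factor of B lymphocytes and also patterns the midbrain, Pax8 directs thyroid and kidney development, and Pax6 is required in the eye, the brain and the hormone cells of the islet. Pax5 (chr4:44544017-44724318, minus strand) had an intronic site (chr4:44717046-44717628) 6.98 kb downstream of the gene start, which was 459 bp upstream of another of its 7 annotated transcript starts. It scored 28 and 40 at E13.5 (ranks 88.6 and 92.9) and 8, 29 and 19 at E18.5 (ranks 70.2, 97.4 and 80.1). Its rank in E18.5 B was the highest of any homeobox site in that library, where the Lhx3 site had ranked lowest. GC content over 500 bp was 70%, the highest of the 11 sites. The second Pax5 site (chr4:44591407-44591788), in an intron 133 kb downstream, scored 15 and 12 at E13.5 (ranks 54.8 and 23.7). The annotated Pax5 transcript start nearest to it was 105 kb away.

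The Pax8 site (chr2:24344274-24344583) was intergenic and 13.3 kb upstream of the gene (chr2:24276071-24331119, minus strand). It scored 12 and 9 (ranks 39.7 and 8.29) and was called at E13.5 only. The Pax6 site (chr2:105541905-105542200) was of another kind. It was 33 kb downstream of the start of Pax6 (chr2:105509053-105543317, plus strand), in an interval annotated as UTR of both Pax6 and the neighbouring Elp4. The nearest of the 29 annotated Pax6 transcript starts was 9.41 kb away. The site was called only in E18.5 A, with a score of 5 (rank 27), and its best RE1 had 8 mismatches. Pax6 was the only homeobox gene with an E18.5 peak and no E13.5 peak.

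Nkx1-1 was the single bound gene of 14 Nkx genes, and Six6, a factor of the eye and pituitary, the single one of the 6 genes of its family. The Nkx1-1 site (chr5:33780736-33781324) was intergenic and 4.41 kb upstream of the gene (chr5:33773383-33776625, minus strand). With scores of 51 and 53 (ranks 98.8 and 96.8) it held the highest rank of the 11 sites in each E13.5 library. At E18.5 it scored 19, 10 and 13 (ranks 94.8, 84.2 and 63.9). The Six6 site (chr12:74040605-74040968) was centred 146 bp upstream of the gene (chr12:74040932-74045886, plus strand), in a UTR of 4930447C04Rik. It was called only in E13.5 B, with a score of 9 (rank 8.29).

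**Figure D2:**
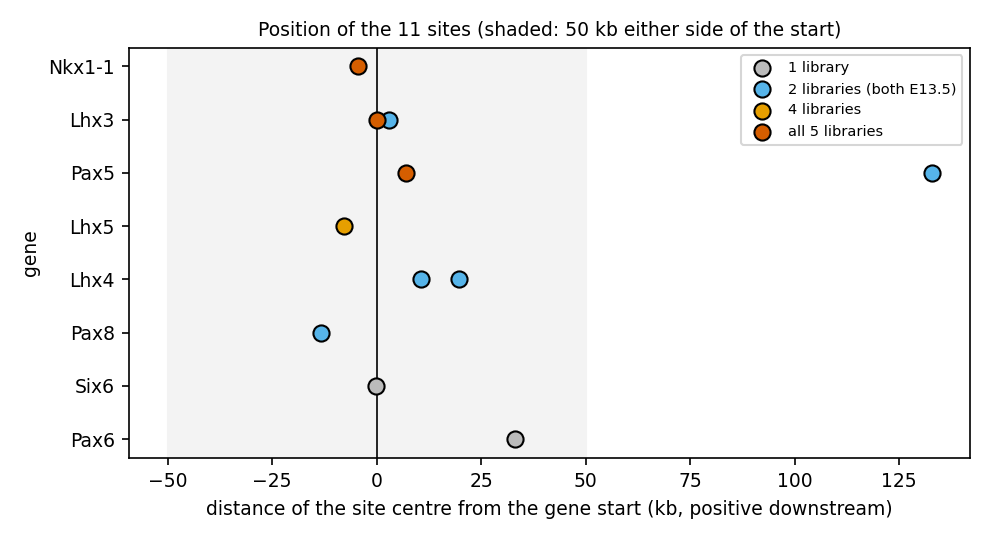
Distance of each site centre from the start of its homeobox gene (kb, positive downstream), with colour giving the number of libraries in which the site was called. The 4 sites called in 4 or 5 libraries lie within 7.7 kb of a start, and the Pax5 site 133 kb downstream is inside the gene but outside the shaded 50 kb.

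Among the 9 sites of both E13.5 libraries assigned to homeobox genes, E13.5 ranks separated those with an E18.5 peak from those without. Mean E13.5 ranks were 97.8 at Nkx1-1, 96.6 at the Lhx3 start, 90.8 at Pax5 and 90.3 at Lhx5. They were 49.5 at the Lhx3 intron, 48.5 and 7.13 at Lhx4, 39.2 at the second Pax5 site and 24 at Pax8. This is a description of 9 sites over libraries that share these peaks, without a test. High E13.5 ranks at recurring sites were general, with a median of 86.6 at all sites of at least 2 E18.5 libraries. At all sites of both E13.5 libraries the median was 54.3. Beyond the window the separation did not hold. The sites nearest to Lhx1 and Isl1 had E18.5 peaks at mean E13.5 ranks of 47.8 and 13.1. Of the 9 sites 4 (44.4%) had an E18.5 peak, beside 40.3% of all 1183 sites of both E13.5 libraries, and 3 (33.3%) were called in all 5 libraries, beside 9.3%.

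The 9 sites were also set beside all sites of both E13.5 libraries in sequence and position. An RE1 match was present in 5 (55.6%, exact binomial 95% interval 21.2 to 86.3), beside 844 of 1183 (71.3%) and beside 7 of 1183 windows located 10 kb away (0.592%). The interval covers counting error only and includes the value of all sites. With split elements counted, 7 of the 9 (77.8%) held an RE1, the exceptions being both Lhx4 sites, beside 960 of 1183 sites (81.1%). Median GC content was 52.8% at the 9 sites and 49.8% at all sites, and the median of the mean E13.5 rank was 49.5 and 54.3. The median distance to the nearest protein-coding start was 7.7 kb at the 9 sites, which were chosen by nearness to genes, and 26.7 kb at all sites. Within 5 kb of a start were 3 of the 9 (33.3%) and 28% of all sites.

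**Figure D3:**
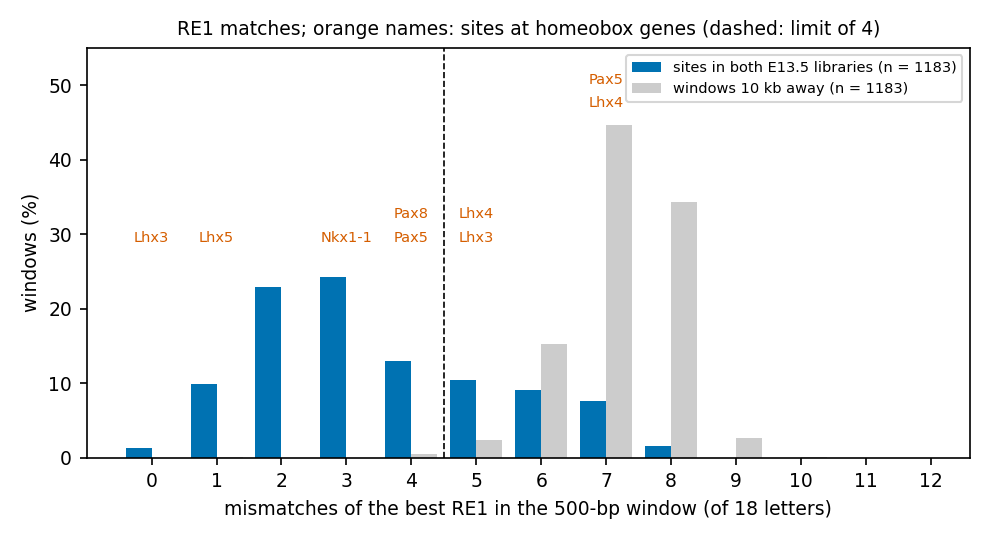
Mismatches of the best RE1 in the 500-bp window (of 18 scored letters) for the 1183 sites of both E13.5 libraries (blue) and for windows 10 kb away (grey), as percent of windows, with names of homeobox genes above the value of each of their 9 sites. Lhx3 at 0, Lhx5 at 1 and Nkx1-1 at 3 lie where windows 10 kb away are rare, while Pax5 (+6.98 kb) and 1 Lhx4 site lie at 7, the most common value of those windows. A window of unsequenced bases is beyond the axis.

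Counted per gene, homeobox genes held peaks at about the share of all protein-coding genes at E13.5. A site of both E13.5 libraries was present at 6 of 95 genes (6.32%, 2.35 to 13.2), beside 6.89% of all genes. A site of at least 2 E18.5 libraries was present at 4 genes (Lhx3, Lhx5, Nkx1-1 and Pax5; 4.21%, 1.16 to 10.4), beside 2.19%. In single libraries 6 and 7 genes held a peak in E13.5 A and B (6.32% and 7.37%, beside 7.87% and 7.57%). At E18.5 these were 5, 4 and 3 genes in A, B and C (5.26%, 4.21% and 3.16%, beside 3.27%, 3.04% and 1.96%). All of these intervals include the share of all genes. They count genes singly, although 39 of the 95 are clustered Hox genes, none of which held a peak. The Hox genes lower the shares, and the intervals do not cover their clustering. Homeobox genes are short, with a median length of 5.68 kb against 15.5 kb for all genes, and the part of gene length in these shares was not tested.

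The 4 homeobox sites of at least 2 E18.5 libraries all lay within 10 kb of a start. Their median distance to the nearest protein-coding start was 5.69 kb, beside 4.95 kb for all 249 searched sites of that set. Within 5 kb were 50% and 50.6%, so nearness to a start was not particular to homeobox genes. Within 10 kb of the start, 4 homeobox genes (4.21%, 1.16 to 10.4) had a site of both E13.5 libraries, beside 2.12% of all genes. The same 4 genes had a site of at least 2 E18.5 libraries there, beside 0.792% of all genes. Lhx3, Lhx5, Nkx1-1 and Pax5 are the genes concerned, and without E18.5 A or E18.5 B the count at E18.5 was 3, with Lhx5 lost. Among 82 other homeobox genes the shares within 10 kb were 11% at E13.5 and 3.66% at E18.5. The distance of 10 kb was planned as an alternative with gene bodies kept, which gave 5 homeobox genes at E13.5 (Lhx4 added) and 4 at E18.5. The shares above leave gene bodies out, and this comparison was made with these sites already known.

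The stages were compared over libraries. The number of homeobox genes with a peak was 6.5 ± 0.707 at E13.5 (SD, n = 2) and 4 ± 1 at E18.5 (SD, n = 3), a difference of 2.5 (exact two-sided permutation test, p = 0.2). The peaks of a library assigned to homeobox genes numbered 9 and 10 in the E13.5 libraries, and 5, 4 and 3 in the E18.5 libraries. As a share of all peaks of the library these were 0.643% and 0.75% in the former, and 0.924%, 0.959% and 1.33% in the latter. Means were 0.697% ± 0.0759 and 1.07% ± 0.223, a difference of -0.374 percentage points (exact two-sided permutation test, p = 0.2). Groups did not overlap in either measure, and 0.2 is the smallest p that 2 against 3 libraries allow. For the count this was also so over all protein-coding genes. Of these, 7.87% and 7.57% held a peak in the E13.5 libraries, and 3.27%, 3.04% and 1.96% in the E18.5 libraries. For the share of peaks no value over all genes is given. Its lack of overlap is therefore not read as a result about homeobox genes. The difference in share turned to 0.442 when the 226 highest-scoring peaks of each library were compared, so its direction depended on how many peaks were taken.

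**Figure D4:**
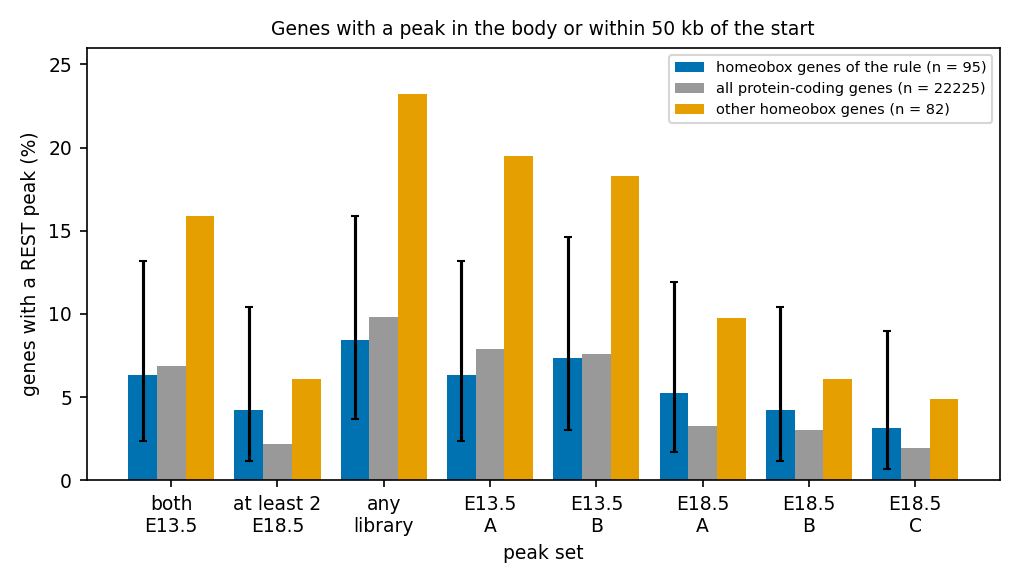
Percent of genes with a REST peak in the gene body or within 50 kb of the start, for the 95 homeobox genes (blue, with exact binomial 95% intervals), all 22225 protein-coding genes (grey) and 82 other homeobox genes (orange), in each library and in the combined sets. Blue and grey bars are close at E13.5 (6.32% and 6.89% in both libraries), and the intervals of the blue bars include the grey bars throughout. These intervals count clustered Hox genes singly.

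Hormone-cell factors of the pancreas were too few for their counts to stand apart from those of all genes. A list of 8 genes (Pax4, Pax6, Nkx2-2, Nkx6-1, Nkx6-2, Isl1, Irx1 and Irx2) had 0 with a site of both E13.5 libraries, which allows a share of up to 37.5%, beside 6.89% of all genes. It had 1 with a peak in any library (12.5%, beside 9.8%), the Pax6 site described above. Pax4, needed for beta and delta cells, had its nearest peak 104 kb away. That peak was in an intron of Zfp800, whose start is closer. It scored 7 and 19 in E13.5 A and B (ranks 9.18 and 57.3), with an RE1 of 3 mismatches. Irx2, an alpha-cell factor, had its nearest peak at 274 kb, with scores of 14 and 19 in both E13.5 libraries (ranks 49.7 and 57.3). Irx1 had its nearest peak at 364 kb, called in E18.5 A alone with a score of 5.

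Nkx2-2 and Nkx6-1 act in beta-cell specification, and Isl1 in islet and motor neuron differentiation. The nearest peak of Nkx2-2 was 432 kb away and scored 9 and 8 in the E13.5 libraries (ranks 21.6 and 4.46), close to the bottom of the list in B. That of Isl1 was 1060 kb away and scored 9, 8 and 6 in E13.5 A, E13.5 B and E18.5 A. That of Nkx6-1 was 1520 kb away and scored 9 and 11 at E13.5. All of these were closer to the start of another gene. Dlx6 had its nearest peak at 1280 kb, in an intron of Col28a1, with scores of 11 and 7 at E13.5.

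Factors of the pancreatic mesenchyme or gut tube, among them Nkx3-2, Lhx2, Nkx2-3, Nkx2-5, Hoxb6 and Isl1, had 0 of 7 with a peak in any library, which allows up to 42.9%, beside 9.8% of all genes. Nkx3-2, which acts in the mesenchyme around the early pancreas, was the gene just outside the 50-kb window, with a peak at 56.6 kb in a coding exon of Rab28. This peak scored 9 in E13.5 A (rank 21.6) and 4 in E18.5 B (rank 9.11). Just inside the window, the farthest sites were those of Pax6 at 33 kb and Lhx4 at 19.6 kb.

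Of 26 genes of neural patterning and neuronal identity, 5 had a site of both E13.5 libraries (19.2%, beside 6.89% of all genes) and 3 a site of at least 2 E18.5 libraries (11.5%, beside 2.19%). The 5 were Lhx3, Lhx4, Lhx5, Pax5 and Pax8, and the 3 were Lhx3, Lhx5 and Pax5. Nkx1-1, outside that list, was the other gene with sites of both kinds. The list was assembled with earlier results of these data known, and its count stands as a description. It includes Pax5 and Pax8, described above with roles outside neural tissue. It leaves out Pax6, which was placed with the hormone-cell factors only, and Isl1, described above with a role in motor neurons. The 39 Hox genes are left out as well. None of these omitted genes had a site of both E13.5 libraries, so the share depends on how the list was drawn.

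Further sites called in 4 or 5 libraries lay beyond the window at Lhx and Pax genes related to those above, and their RE1s are shown for comparison with those at Lhx3 and Lhx5, with the element in capitals.
Pax2, 63.5 kb upstream: gcgtgTTCAGAACCATGGACAGAGGcagcg
Lhx2, 78.9 kb downstream: ctagaCCCAGCACCCAGGACAGCTCcccag
Lhx1, 137 kb upstream: gatgtTTCAGCACCGGGGACAGCGAcaatc

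Pax2, a kidney and midbrain factor of the same subgroup as Pax5 and Pax8, had an intergenic site (chr19:44766790-44767337) called in all 5 libraries. It scored 26 and 23 at E13.5 (ranks 85.1 and 68) and 9, 5 and 8 at E18.5 (ranks 76.7, 29.5 and 14.4). Lhx2, a forebrain and eye factor, had a site (chr2:38273403-38273955) called in all 5 libraries, with E13.5 scores of 32 and 47 and E18.5 scores of 9, 7 and 14. Its E13.5 ranks of 92.8 and 95.7 were below those of the Lhx3 start and Nkx1-1 sites in both libraries. Both elements had 3 mismatches.

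Lhx1, the paralogue of Lhx5 and a factor of head, kidney and Purkinje cell development, had a site (chr11:84475401-84475931) with an RE1 of 1 mismatch. It scored 22, 11, 4 and 5 in E13.5 A, E13.5 B, E18.5 B and E18.5 C (ranks 77.6, 18, 9.11 and 0.664). Its rank differed widely between the E13.5 libraries. For Pax2, Lhx2 and Lhx1 alike, no protein-coding start was closer to the site than their own. All 3 genes of the Pax2, Pax5 and Pax8 subgroup had a site of both E13.5 libraries within 63.5 kb whose nearest start was theirs. That limit is the distance of the Pax2 site itself, so the count was fixed by these data. The share of all genes was not counted at this distance, and within 100 kb it was 11.5%.

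The Hox clusters were without an assigned peak. None of the 39 Hox genes had one, beside 9.8% of all genes. Counted singly, 0 of 39 allows up to 7.69%, a limit that does not hold for genes of 1 cluster. Members of a cluster shared the same nearest peak, so the 39 genes stand for 4 peaks. The HoxA genes were 185 to 287 kb from a peak called in E18.5 A only, with rank 8.23, which was nearer to Evx1. The HoxB genes were 713 to 885 kb, the HoxC genes 1040 to 1140 kb and the HoxD genes 3370 to 3460 kb from the nearest peak. Among the other families, 6 Dlx, 6 Irx, 2 Isl, 2 Otx and 3 Pitx genes had none, with nearest peaks no closer than 227, 274, 512, 158 and 117 kb.

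In the family of Six6, Six2, a nephron progenitor factor, and Six3, a forebrain and eye factor, are neighbours and shared their nearest site (chr17:85771364-85771841), in an intron of 1700106N22Rik. It was 241 kb from Six3 and 316 kb from Six2 and scored 11 and 16 at E13.5 (ranks 33.1 and 44.3), with an RE1 of 5 mismatches.

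**Figure D5:**
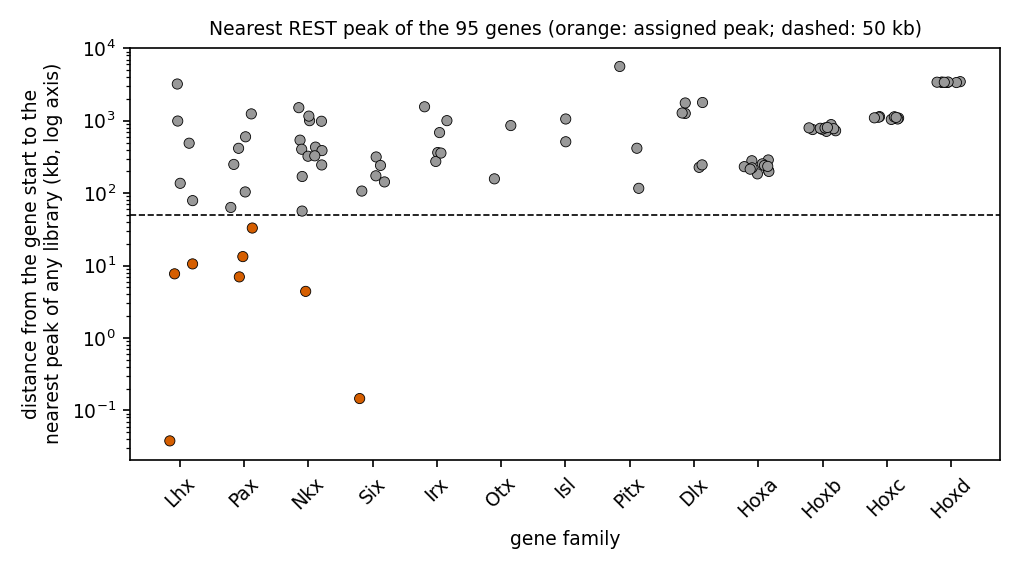
Distance from the gene start to the nearest peak of any library (kb, log axis) for the 95 homeobox genes by family, with genes that hold an assigned peak in orange and the 50-kb window as a dashed line. Genes with peaks are Lhx, Pax and Nkx genes and Six6, while the Hox clusters appear as tight groups from 185 to 3460 kb.

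Over all 95 genes the median distance to the nearest peak of any library was 512 kb, beside 459 kb for all protein-coding genes, and 49.5% and 52.6% had one within 500 kb. The median distance to the nearest site of both E13.5 libraries was 1050 kb, beside 715 kb for all protein-coding genes. Within 500 kb of such a site were 22 homeobox genes (23.2%), beside 40.2% of all genes. Within 100 kb the shares were 8.42% and 11.5%. The clustered Hox genes, which count singly here, make up 39 of the 95. Homeobox genes outside the rule, a list of 82 from the Pou, Barhl, Onecut, Meis and other families, had a median of 424 kb, and 13 of them (15.9%) held a site of both E13.5 libraries. The 95 genes thus had lower counts than this second homeobox list, a difference that was not tested.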

How the data were processed

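REST ChIP-seq peak lists of 5 libraries were used. The authors' processing is taken from the submitters' processing notes and the methods of the study. Single-end 50-bp reads were aligned to mm9 with Bowtie2 2.2.5 (at most 1 mismatch), and reads of mapping quality 10 or higher were kept. Peaks were called against input with MACS2 2.1.0. Whether the E18.5 libraries were handled alike was not stated in those sources. Lists were called per library. The deposited score of each peak is the authors' value, in a unit not given, and was used only to rank peaks within a library. The file names state a false discovery rate of 10%. The methods of the study describe replicates pooled before peak calling and a stricter rate, so these lists are not its published peak set. Peak ends were within mm9 chromosome lengths on 20 of 20 assembled sequences compared.

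Overlapping entries of a library were merged with the highest score kept. Peaks of all libraries overlapping by at least 1 bp were joined into 1860 sites, of which 1186 were in both E13.5 libraries and 252 in at least 2 E18.5 libraries. Sites on unplaced sequence were not searched. Coordinates are mm9, counted from 1. The first base of the gene record served as the start, and genes with the same symbol were counted once. RE1 mismatches were counted without weights. Every homeobox gene with a peak was named, with 13 pancreas genes and the 5 closest without one, except that 2 of these genes are not reported here. Genes, lists and alternatives were chosen with earlier results of these data known. Stages were compared by exact permutation over libraries. Where nothing more is said than that libraries are replicates, p-values measure only the spread between them. The assignment and the RE1 search were tested on simulated data. Python 3.11.15, pandas 2.3.3, numpy 2.4.6, scipy 1.17.1 and pysam 0.24.0 were used.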

Additional observations from a re-analysis of the deposited data

How the results depend on the processing

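Counting peaks in the gene body alone left 3 genes with a site of both E13.5 libraries, 2 with a site of at least 2 E18.5 libraries and 5 with a peak in any library, since Lhx5, Nkx1-1 and Pax8 have their sites outside the gene. With the 226 highest-scoring peaks of each library, 4 genes had a peak in any library (Lhx4, Pax6, Pax8 and Six6 were lost), and the E13.5 minus E18.5 difference in the share of peaks turned from -0.374 to 0.442 (exact permutation p = 0.2 for both). Within 100 kb of the start, Lhx2 and Pax2 joined the genes with a site at both stages and Nkx3-2 those with any peak. Windows at any transcript start, distances to peak edges and a stricter overlap (0.5 of the shorter peak) changed no gene. Leaving out 1 library in turn gave 6 to 7 genes at E13.5, 3 to 4 at E18.5 (Lhx5 was lost without E18.5 A or B) and 7 to 8 in any library (Six6 was lost without E13.5 B and Pax6 without E18.5 A). It gave differences of 2 to 3 genes per library and of -0.447 to -0.245 percentage points in the share of peaks. The share of sites with an RE1 was 33.3% with at most 3 mismatches and 77.8% with at most 5, within the interval of the 55.6%. Over all sites of both E13.5 libraries these shares were 58.3% and 81.7%. No paired analysis was possible because the letters of E13.5 and E18.5 libraries name different pools of embryos. Unknown depth limits every statement on a missing peak.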

Other observations

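Homeobox genes outside the rule held some of the strongest sites next to a homeobox gene. Barhl1, a factor of cerebellar and auditory neurons, had a site 0.434 kb from its start that was called in all 5 libraries, with a mean E13.5 rank of 98.3 and an RE1 of 2 mismatches. Pou2f2, a factor of B lymphocytes and neurons, had a site 13.6 kb upstream in all 5 libraries, with a mean rank of 94.8. Meis3, which acts in the hindbrain, had a pair of sites with an RE1 of 0 and 1 mismatches and mean ranks of 87.8 and 85.8. The sensory neuron factors Pou4f1, Pou4f2 and Pou4f3 each had at least 1 site of both E13.5 libraries. Gsx1, a forebrain and spinal cord factor, had a site across its start in 4 libraries, and its best canonical RE1 had 7 mismatches.

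Some of the 95 genes had a peak beyond 50 kb that was nearer to another gene. Six5 had a site of all 5 libraries 143 kb away, closest to Nova2, and Pitx3 had a site of both E13.5 libraries 117 kb away, closest to Nfkb2. These values belong to no comparison above.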
